A study of Sus scrofa with 27 samples.

Results

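The CXC chemokines of the pig lung were followed during ex vivo lung perfusion (EVLP), in which a lung taken from the donor is ventilated and perfused outside the body. Of 9 CXC chemokine genes looked for, 7 carry their symbol in the table of counts and had at least 10 counts in a library: CXCL2, CXCL8, CXCL9, CXCL10, CXCL11, CXCL12 and CXCL14. These 7 genes, out of 31908 in the table, enter every count of members below. Rows for CXCL13 and CXCL16 have no gene name there, were identified by RefSeq position and description, and are described beside the 7. The lungs came from Large-White pigs by a non-heart-beating donor model and were perfused with Steen solution holding methylprednisolone, cefuroxime and heparin. In the Gold Standard group (GS, 5 pigs) part of the solution was replaced at intervals, and in the Pediatric Dialysis group (PD, 4 pigs) it was not replaced and a pediatric dialysis membrane on the circuit cleared it instead. Every pig gave a lung biopsy before perfusion, at 0h, and at 6h and 12h of perfusion, which makes 15 GS and 12 PD libraries. All lungs of both groups therefore received the corticosteroid, the antibiotic and the anticoagulant, no group went without perfusion, and the age of the animals is not given in the sources used here.

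CXC chemokines are small secreted proteins that guide leukocytes through G protein-coupled receptors. CXCL2 and CXCL8 (interleukin-8) attract neutrophils through CXCR2 and, for CXCL8, CXCR1, and their genes are switched on by NF-kB after interleukin-1 or tumour necrosis factor. CXCL9, CXCL10 and CXCL11 are made under interferons, above all interferon gamma, and attract activated T cells and natural killer cells through CXCR3. CXCL12 is made constantly by stromal and endothelial cells and binds CXCR4 and the scavenger ACKR3. CXCL13 draws B cells through CXCR5, CXCL16 is a membrane-bound ligand of CXCR6, and CXCL14 is a chemokine of epithelia. In the lung the neutrophil attractants are known from ischemia-reperfusion injury, and the ligands of CXCR3 from rejection of the graft.

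The promoters of the 5 inflammatory members are shown because they differ in the letters known from interferon and NF-kB regulation. Each line gives the 250 bases before the RefSeq transcription start, 5′ to 3′ on the strand of the gene, in the assembly Sscrofa11.1. Capitals mark matches on either strand to the interferon-stimulated response element core (GAAA, any 2 bases and GAAA again) or to the kB core GGANNTTCC. CXCL10 lies at chr8:71695949-71696198 on the minus strand, CXCL9 at chr8:71670237-71670486 (minus), CXCL11 at chr8:71725670-71725919 (minus), CXCL8 at chr8:69932396-69932645 (plus) and CXCL2 at chr8:70157003-70157252 (plus).
CXCL10: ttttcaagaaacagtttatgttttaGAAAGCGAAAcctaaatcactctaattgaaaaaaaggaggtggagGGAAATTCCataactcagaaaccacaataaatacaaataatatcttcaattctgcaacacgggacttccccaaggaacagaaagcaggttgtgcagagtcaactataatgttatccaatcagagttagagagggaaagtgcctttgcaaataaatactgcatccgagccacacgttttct
CXCL9: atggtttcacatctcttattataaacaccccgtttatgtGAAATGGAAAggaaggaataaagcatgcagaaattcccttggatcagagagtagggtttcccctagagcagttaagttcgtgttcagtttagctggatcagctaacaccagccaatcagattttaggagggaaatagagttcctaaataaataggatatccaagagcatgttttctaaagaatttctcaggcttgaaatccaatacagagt
CXCL11: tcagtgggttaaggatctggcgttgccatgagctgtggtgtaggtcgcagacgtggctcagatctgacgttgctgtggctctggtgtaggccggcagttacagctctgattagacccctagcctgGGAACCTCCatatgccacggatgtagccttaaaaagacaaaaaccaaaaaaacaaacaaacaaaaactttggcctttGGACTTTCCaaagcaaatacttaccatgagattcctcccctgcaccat
CXCL8: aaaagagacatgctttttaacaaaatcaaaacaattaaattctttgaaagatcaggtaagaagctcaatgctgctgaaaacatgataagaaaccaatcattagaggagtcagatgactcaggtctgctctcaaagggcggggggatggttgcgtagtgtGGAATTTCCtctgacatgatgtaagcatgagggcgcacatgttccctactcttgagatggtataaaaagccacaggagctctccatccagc
CXCL2: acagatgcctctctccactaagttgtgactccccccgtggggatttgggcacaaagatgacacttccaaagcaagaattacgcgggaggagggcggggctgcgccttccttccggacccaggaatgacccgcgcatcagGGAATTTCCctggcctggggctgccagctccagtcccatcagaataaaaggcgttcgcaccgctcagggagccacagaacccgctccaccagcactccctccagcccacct
The interferon core stood in the windows of CXCL10, 225 bases before the start, and CXCL9, 211 bases before it. The kB core stood in those of CXCL10 (180 bases before the start), CXCL11 (125 and 48), CXCL2 (111) and CXCL8 (91), the last pair with the same 9 letters GGAATTTCC. Neither core was found in the windows of CXCL12, CXCL13, CXCL14 or CXCL16. Among 19525 RefSeq promoters of this length, 3.01% held the interferon core and 7.63% the kB core. The matches are descriptions of the letters, and binding was not measured. Repeats were not masked in the windows, and whether the RefSeq starts are used in these lungs was not tested. The row of CXCL11 spans 11875 bases and that of CXCL10 2610.

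In Sscrofa11.1, 5 of the 7 members lie on chromosome 8. CXCL8 (ENSSSCG00000008953, 69932643 to 69935861, plus strand) and CXCL2 (ENSSSCG00000008959, 70054888 to 70159145, plus) lie near each other, and CXCL9 (ENSSSCG00000032777, 71663495 to 71670271, minus), CXCL10 (ENSSSCG00000032474, 71693339 to 71695948, minus) and CXCL11 (ENSSSCG00000008978, 71713800 to 71725674, minus) form a second cluster. CXCL13 (ENSSSCG00000036445, 73071295 to 73077340, plus) is on the same chromosome. CXCL12 (ENSSSCG00000034973) is on chromosome 14 from 91516429 to 91552766 (plus), CXCL14 (ENSSSCG00000014310) on chromosome 2 from 137803988 to 137812914 (minus) and CXCL16 (ENSSSCG00000017920) on chromosome 12 from 52133578 to 52152428 (plus). The row counted as CXCL2 spans 104258 bases and also takes in a related RefSeq gene, LOC100525396, with 73.7% identity to CXCL2, and a pseudogene, LOC102157763, with 69.9%, so part of its counts may belong to these. CXCL10 and CXCL11 lie inside ART3 on the opposite strand, and ART3 held 0 to 154 counts in a library, where CXCL10 held at least 834 and CXCL11 at least 23.

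The depth differed by group, with 26335584 to 67522703 counts per GS library and 14650700 to 21820935 per PD library. No PD library reached the depth of a GS library, the PD lungs had served in an earlier study of the same group and the GS lungs had not, and 2 extraction methods were used that the labels do not tie to samples, so group, depth and batch cannot be told apart in any comparison of PD with GS. Comparisons of a pig with its own 0h biopsy do not rest on the level between groups. All 10 lung epithelium markers of the list, SFTPC, AGER and SCGB1A1 among them, were above 0 in every library. Within groups an adjusted p-value under 0.05 and a change of at least 2-fold made a call, with edgeR's quasi-likelihood test paired by pig and Benjamini-Hochberg adjustment over all genes. Levels are counts scaled to the effective library size after TMM normalization (CPM).

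Among the chemokines that bind CXCR3, CXCL10 was the member called within a group. In PD its level at 0h was 125.5 CPM in pig 2, 258 in pig 3, 191 in pig 4 and 57.2 in pig 5. At 6h the same pigs had 529, 161, 6580 and 237 CPM, and at 12h they had 219, 3767, 9969 and 2340 CPM. CXCL10 was thus above its 0h level in all 4 PD pigs at 12h, by 1.75-fold in pig 2 and by up to 52.1-fold in pig 4, and no 12h value of pigs 3, 4 and 5 overlapped the 0h values. The 12h library of PD pig 2 stood apart from the others, with the lowest normalization factor (0.633) and the fewest genes detected (18979) of the 27, and among the PD libraries at 12h it had 356 CPM of the globin HBB against 7.52 to 11.2 and 85010 CPM of the surfactant gene SFTPC against 12590 to 19650. The part of these in its CXCL10 value was not tested. The fitted log2 fold change at 12h was 4.08 ± 0.99 (SE, 4 pigs; edgeR adjusted p = 0.0371). This made 1 of 7 members called in PD at 12h, against 5.98% of 15545 genes called in either direction and 3.22% called higher. Without PD pig 2 the fit called 3826 of 15703 genes, without pig 4 it called 399, and without pig 3 or pig 5 it called none (0 of 15603 and 0 of 15512), with 2091 and 1878 at an unadjusted p under 0.05. Each change from 0h to 12h called in PD with all pigs, those named below among them, was thus lost without pig 3 or pig 5. CXCL10 was at 4.72 ± 0.92 without PD pig 2 (adjusted p = 0.0129). The call of CXCL10 was lost without PD pig 3 (adjusted p = 0.192), pig 4 (0.0692) or pig 5 (0.307), and, with all pigs, without the low-count filter (0.0654) or with the 6h libraries left out of the fit (0.122), while the log2 fold change stayed at 3.49 to 4.72 under all 13 alternatives.

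In GS, CXCL10 had 111, 112, 23.4, 62 and 97.6 CPM at 0h in pigs 9, 17, 44, 55 and 77. At 12h the 5 pigs lay between 94.5 and 107 CPM, a narrower range than at 0h. The log2 fold change at 12h was 0.64 ± 0.54 (SE, 5 pigs; adjusted p = 0.364). At 6h GS pig 9 stood alone with 589 CPM, while the other GS pigs had 15 to 102 CPM. The fit at 6h gave 0.40 ± 0.55 in GS (adjusted p = 0.614) and 2.31 ± 0.94 in PD (adjusted p = 0.481).

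CXCL9 moved in the same direction as CXCL10 in PD with a smaller size. PD pigs 2, 3, 4 and 5 had 123, 280, 261 and 82.0 CPM at 0h and 152, 922, 3202 and 369 CPM at 12h. All 4 pigs were higher at 12h, by 1.24-fold to 12.3-fold, yet the log2 fold change of 2.04 ± 0.60 did not pass the test (adjusted p = 0.0671). It passed with DESeq2 (2.08, adjusted p = 0.00362), with all 27 libraries in the fit (2.04, 0.0155), without the low-count filter (2.07, 0.0426) and without PD pig 2 (2.35, 0.0154). At 6h PD pig 4 had 1140 CPM, pig 2 had 342, pig 5 had 155 and pig 3 had 137, with a fitted log2 fold change of 0.95 ± 0.59 (adjusted p = 0.622). In GS the level ran from 49.7 to 196 CPM at 0h, from 41.5 to 178 at 6h and from 77.6 to 362 at 12h, and the GS ranges of the 3 times overlapped. The log2 fold change in GS was −0.41 ± 0.41 at 6h (adjusted p = 0.485) and 0.67 ± 0.43 at 12h (adjusted p = 0.24).

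CXCL11 was the rarest of these ligands, with 23 to 2739 counts in a library. In PD it had 6.66, 13.9, 7.86 and 2.55 CPM at 0h in pigs 2, 3, 4 and 5, then 22.1, 7.13, 85.9 and 7.66 CPM at 6h and 2.48, 12.8, 189 and 3.95 CPM at 12h. Pig 4 held the high values, and at 12h pigs 2 and 3 were below their own 0h level. The log2 fold change in PD was 1.24 ± 0.82 at 6h (adjusted p = 0.637) and 0.92 ± 0.86 at 12h (adjusted p = 0.555). In GS, CXCL11 had 0.946 to 5.61 CPM at 0h, 0.755 to 3.74 at 6h and 1.39 to 7.53 at 12h, with log2 fold changes of −0.35 ± 0.54 and 0.12 ± 0.59. PD pig 4 had the highest value of all 27 libraries for CXCL9, CXCL10 and CXCL11, each at 12h. The panels of CPM by pig and time show that pig above the rest from 6h.

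**Figure D1:**
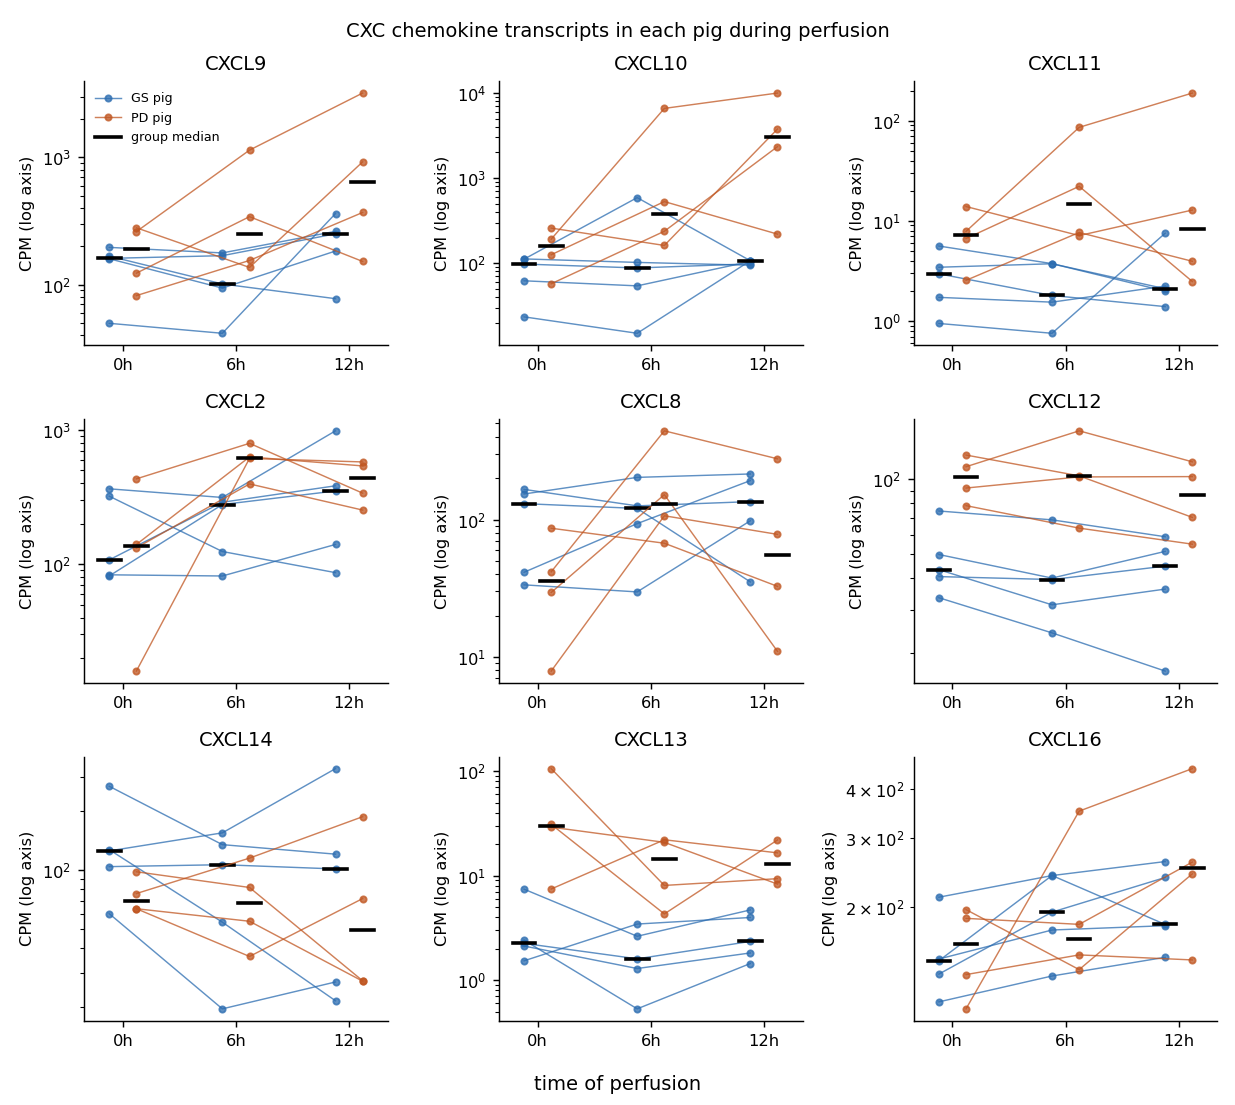
Level of each CXC chemokine in CPM (log axis) at 0h, 6h and 12h, 1 line per pig (blue GS, orange PD) and a black bar for the median of the group. CXCL10 at 12h lies between 219 and 9969 CPM in the PD pigs and between 94.5 and 107 CPM in the GS pigs, and CXCL12 changes little over time in either group.

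The neutrophil attractants CXCL2 and CXCL8 had their largest PD values mostly at 6h, and no change of theirs from 0h was called with all pigs in the fit. CXCL2 in PD had 140, 132, 432 and 16.0 CPM at 0h in pigs 2, 3, 4 and 5 and 630, 396, 795 and 613 CPM at 6h. It was higher at 6h in all 4 pigs, by 1.84-fold in pig 4 and 38.4-fold in pig 5, whose 0h level was the lowest of all libraries. At 12h the PD pigs had 540, 253, 338 and 578 CPM, with pig 4 below its 0h level. The fit gave a log2 fold change of 1.99 ± 0.70 at 6h (adjusted p = 0.406) and 1.56 ± 0.72 at 12h (adjusted p = 0.211).

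In GS, CXCL2 had 321, 83.4, 81.7, 108 and 364 CPM at 0h in pigs 9, 17, 44, 55 and 77 and 86.5, 140, 351, 384 and 985 CPM at 12h. It was higher at 12h in 4 of 5 pigs and lower in pig 9. The log2 fold change was 0.17 ± 0.47 at 6h (adjusted p = 0.81) and 0.78 ± 0.48 at 12h (adjusted p = 0.21). Without pig 9 the value at 12h was 1.49 and was called (adjusted p = 0.00316), and so was that of CXCL8 (1.001, adjusted p = 0.0394).

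CXCL8 in PD had 29.5, 86.5, 41.7 and 7.92 CPM at 0h in pigs 2, 3, 4 and 5, 152, 67.3, 442 and 107 CPM at 6h and 11.0, 32.7, 277 and 78.1 CPM at 12h. Pigs 4 and 5 stayed above 0h at 12h, and pigs 2 and 3 ended below it. Its fitted log2 fold change was 2.01 ± 0.85 at 6h (adjusted p = 0.499) and 0.76 ± 0.89 at 12h (adjusted p = 0.645). In GS it ranged from 33.5 to 166 CPM at 0h, from 29.8 to 203 at 6h and from 35.2 to 215 at 12h, with log2 fold changes of 0.09 ± 0.42 and 0.51 ± 0.44 (adjusted p = 0.894 and 0.381). Thus 0 of 7 members were called in GS at 6h, where 11.1% of 18594 genes were called, and 0 of 7 at 12h, where 15.7% were. In PD at 6h 0 of 7 members were called and 0.142% of 15545 genes were. That was 22 genes, against 428 with DESeq2, 479 with all 27 libraries in the fit, 139 with the 12h libraries left out and 98 without PD pig 2. Without PD pig 3, 4 or 5 edgeR called 0 genes, with 1029, 937 and 580 at an unadjusted p under 0.05. Before adjustment the edgeR p was under 0.05 for CXCL14 in GS at 6h, where it was for 7653 of 18594 genes. In PD at 6h it was for CXCL2, CXCL8 and CXCL10, and for 1463 of 15545 genes. In GS at 12h it was for 0 of 7 members, and for 9014 of 18594 genes. DESeq2 called 0 of 7 in each of these comparisons as well.

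CXCL12 varied least over time. Its range was 33.5 to 74.6 CPM in GS and 78.4 to 125 CPM in PD at 0h, 24.2 to 68.7 and 63.7 to 157 CPM at 6h, and 17 to 58.8 and 54.9 to 118 CPM at 12h. In GS it was lower at 6h than at 0h in all 5 pigs, by a log2 value of −0.30 ± 0.15 (adjusted p = 0.147), and −0.30 ± 0.15 at 12h (adjusted p = 0.126). In PD the values were −0.00 ± 0.30 at 6h (adjusted p = 0.997) and −0.30 ± 0.30 at 12h (adjusted p = 0.594).

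CXCL14 spread widely between pigs in GS. It had 60.0 to 269 CPM at 0h and 21.5 to 331 CPM at 12h there, and 63.6 to 98.2 and 27.1 to 188 CPM in PD. At 12h it was lower than at 0h in 4 of 5 GS pigs and 2.63-fold higher in pig 77. The log2 fold change in GS was −0.84 ± 0.39 at 6h (adjusted p = 0.121) and −0.73 ± 0.40 at 12h (adjusted p = 0.164). Leaving out pig 77 moved the latter to −1.25, which was called (adjusted p = 0.0134). In PD it was −0.22 ± 0.49 and −0.30 ± 0.52.

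**Figure D2:**
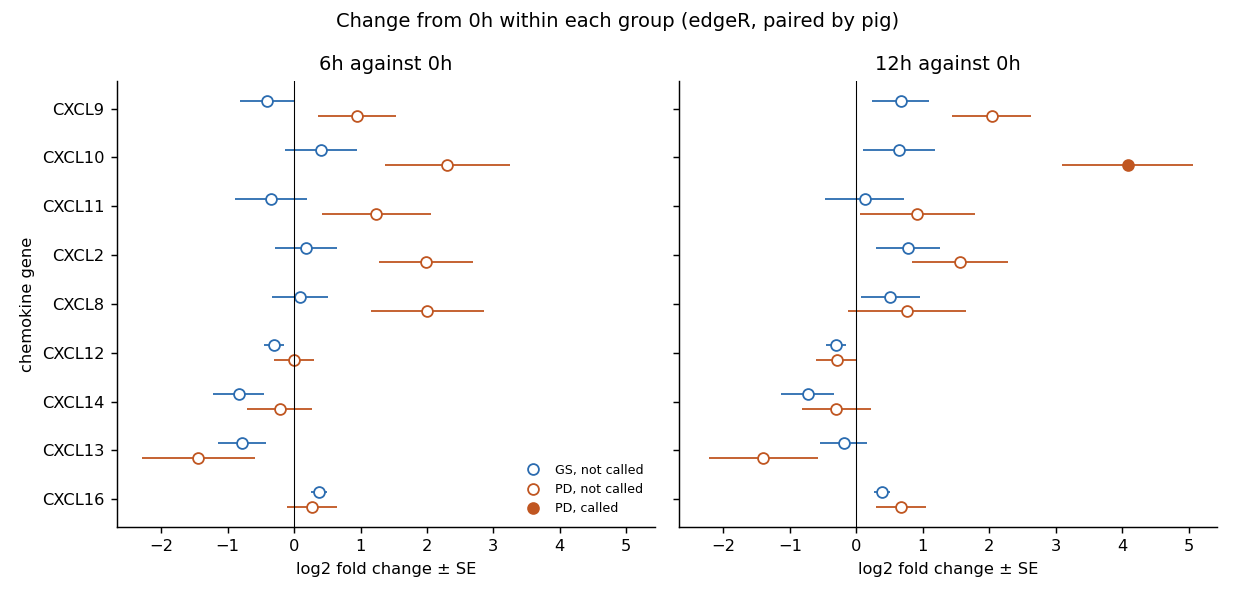
Fitted log2 fold change with its standard error for each chemokine at 6h and 12h against 0h, within GS (blue, 5 pigs) and PD (orange, 4 pigs); filled points passed the test. The filled point is CXCL10 in PD at 12h, at 4.08.

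CXCL13 and CXCL16 were not counted among the 7. CXCL13, the B cell attractant, had 7.46 to 106 CPM at 0h in PD and 1.53 to 7.43 CPM in GS. Its log2 fold change was −1.45 ± 0.85 at 6h and −1.40 ± 0.82 at 12h in PD (adjusted p = 0.614 and 0.323), and −0.79 ± 0.36 and −0.19 ± 0.35 in GS (adjusted p = 0.119 and 0.69). CXCL16 was higher than at 0h in all 5 GS pigs at 6h, by 1.14-fold to 1.65-fold, and at 12h, by 1.22-fold to 1.77-fold. These GS changes had adjusted p-values under 0.05 (log2 fold change 0.37 ± 0.12, adjusted p = 0.0359, and 0.39 ± 0.12, adjusted p = 0.0219) but lay under the 2-fold threshold. In PD CXCL16 was higher at 12h in all 4 pigs, by 1.09-fold to 4.13-fold, with a log2 fold change of 0.67 ± 0.38 (adjusted p = 0.304). The row of CXCL16 takes in a long noncoding RNA gene of the same strand, LOC106505509, and overlaps MED11 and ZMYND15 on the opposite strand, which held 15769 and 2507 counts in all libraries together.

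Between 6h and 12h no member was called in either group, and 0.0% of the genes were called in each, while DESeq2 called 1 gene in GS and 221 in PD and the fit of all 27 libraries called 414 in PD (edgeR, smallest adjusted p over all genes 0.9995 in GS and 0.284 in PD). Before adjustment 882 genes had a p under 0.05 in GS and 1562 in PD, and of the members only CXCL9 in GS (log2 fold change 1.07 ± 0.43, edgeR adjusted p = 0.9995). The values of PD were 1.78 ± 0.94 for CXCL10 (adjusted p = 0.558), 1.09 ± 0.60 for CXCL9 (0.57), −1.25 ± 0.80 for CXCL8 (0.638) and −0.42 ± 0.66 for CXCL2 (0.896).

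The next question was whether the change from 0h differed between PD and GS. The log2 ratio of CXCL10 at 12h to 0h was 0.81, 3.87, 5.70 and 5.35 in PD pigs 2, 3, 4 and 5. In GS pigs 9, 17, 44, 55 and 77 it was −0.06, −0.25, 2.19, 0.75 and 0.01. The means were 3.93 ± 2.23 (SD, 4 pigs) and 0.53 ± 1.01 (SD, 5 pigs), and the groups overlapped, since PD pig 2 lay below GS pig 44. The interaction of group and time in edgeR was 3.40 ± 1.11 (SE), with an unadjusted p of 0.00602 and an adjusted p of 0.678 (9 pigs), and without PD pig 2 it was 4.04 ± 1.08 (adjusted p = 0.0565). The exact Wilcoxon test on the ratios gave p = 0.0317, two-sided, and an adjusted p of 0.824, where 3.77% of 17884 genes had an exact p under 0.05.

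No member was called for a difference of change at 6h or at 12h, and neither was any gene (0.0% of 17884 at each time, edgeR; 1046 and 1069 genes at an unadjusted p under 0.05). With PD pig 2 left out, 254 genes were called at 6h in this fit and 153 at 12h, and with all pigs DESeq2 made 7 and 15 calls. At 6h the interaction of CXCL2 was 1.81 ± 0.86, CXCL8 1.89 ± 0.95, CXCL10 1.87 ± 1.11, CXCL11 1.56 ± 1.03 and CXCL9 1.33 ± 0.75, each with an adjusted p of 0.783 and only that of CXCL2 below 0.05 before adjustment in edgeR. At 6h no member had an exact Wilcoxon p under 0.05, where 5.92% of all genes did. The ratios of PD and GS pigs did not separate for any member, while they did for 3.12% of the genes at 6h and 2.09% at 12h. At 12h CXCL9 differed by 1.34 ± 0.76 (adjusted p = 0.872), CXCL2 by 0.76 ± 0.88, CXCL11 by 0.78 ± 1.10, CXCL8 by 0.22 ± 1.01, CXCL14 by 0.41 ± 0.68 and CXCL12 by −0.02 ± 0.30. DESeq2 called 0 of 7 at each time too. The standard errors were near or above 1 for CXCL8, CXCL10 and CXCL11. The size of difference that these 9 pigs could show was not tested at the spread of these members.

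**Figure D3:**
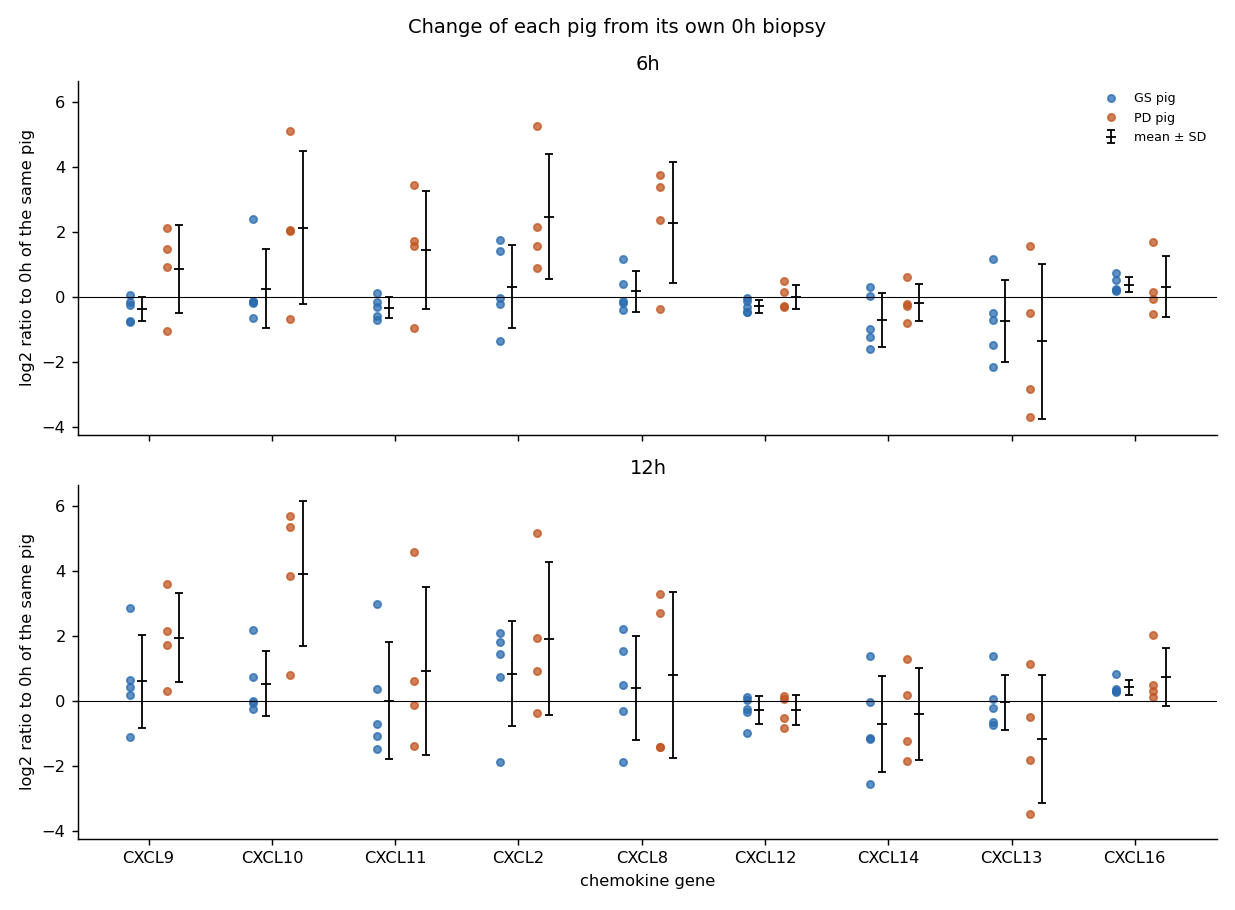
Log2 ratio of CPM at 6h and 12h to the 0h biopsy of the same pig, with 0.5 added to each count; points are pigs (blue GS, orange PD) and bars give the mean ± SD. The PD ratios of CXCL10 at 12h run from 0.81 to 5.70 and the GS ratios from −0.25 to 2.19.

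The levels of PD and GS were then compared at each time in separate fits, which use the same libraries as the comparisons above and carry depth and batch with the group. At 0h 2 of 7 members were called, CXCL12 with a log2 difference of 1.12 ± 0.24 (adjusted p = 0.00305) and CXCL11 with 1.45 ± 0.53 (0.0464), both higher in PD, against 29.1% of 16477 genes called and 15.2% called higher. At 6h 4 of 7 were called, all higher in PD, namely CXCL11 (3.71 ± 0.73, adjusted p = 0.00445), CXCL9 (1.91 ± 0.59, 0.0336), CXCL2 (1.48 ± 0.39, 0.0164) and CXCL12 (1.38 ± 0.34, 0.0124), against 21.1% of 16201 genes called and 11.1% called higher. At 12h 3 of 7 were called, all higher in PD, namely CXCL10 (5.31 ± 0.79, adjusted p = 0.00181), CXCL11 (4.09 ± 1.14, 0.0265) and CXCL9 (2.34 ± 0.74, 0.0425), against 19.3% of 16431 genes called and 10.2% called higher. CXCL8 and CXCL14 were not called at any time. CXCL8 differed by −1.30 ± 0.63 at 0h (adjusted p = 0.119), 0.74 ± 0.55 at 6h (0.337) and −0.43 ± 0.76 at 12h (0.72), and CXCL14 by −0.82 ± 0.35, −0.39 ± 0.50 and −0.58 ± 0.81 (0.0833, 0.59 and 0.646).

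All PD libraries lay above all GS libraries for CXCL12 at 0h, for CXCL2 and CXCL11 at 6h and for CXCL10 at 12h. The libraries of the groups did not overlap for 32.4% of 17884 genes at 0h, 19.9% at 6h and 20.2% at 12h. PD pig 4 carried part of these differences. Without it the log2 difference of CXCL10 at 6h went from 3.43 ± 1.30 to 0.84, that of CXCL11 at 12h from 4.09 to 1.09 (adjusted p = 0.287) and that of CXCL9 at 12h from 2.34 to 1.08 (0.219). CXCL11 at 0h was not called without any of GS pigs 9, 44, 55 and 77 or PD pigs 2, 3 and 4 (adjusted p = 0.0598 to 0.17). CXCL9 at 12h was not called without any 1 GS pig or PD pigs 3 and 4 (0.0559 to 0.219), and CXCL11 at 12h not without GS pigs 9, 17, 55 or 77 or PD pig 4 (0.0576 to 0.287). At 6h the call of CXCL9 was lost without GS pigs 17, 44 or 55 or PD pigs 2 or 4 (0.0522 to 0.199) and that of CXCL12 without PD pig 2 (0.0505). Calls appeared for CXCL10 at 6h without GS pig 9 (4.85, adjusted p = 0.0143) and at 0h without PD pig 5 (1.29, 0.0421), for CXCL8 at 0h without PD pig 3 (−1.95, 0.0334) and for CXCL14 at 0h without GS pig 17 (−1.04, 0.0194). The difference of CXCL10 at 12h was called without any 1 of the 9 pigs.

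The level between groups moved with the length of a gene. At 0h the median log2 difference of PD from GS was 0.81 in the 2546 shortest genes (exons of at most 1899 bases) and −0.48 in the 2544 longest (at least 6287 bases), among the 12711 of 16477 genes with a RefSeq length. The RefSeq exons of all members but CXCL12 (6214 bases) sum to 450 to 1719 bases, within the shortest class. With the trend in length and GC content removed, an alternative chosen after the data had been seen, CXCL12 differed by 1.54 at 0h and by 1.6 at 6h and at 12h and was called at each time, and CXCL10 differed by 3.89 at 12h and was called. CXCL11 then differed by −0.02 at 0h, 2.23 at 6h (called) and 2.2 at 12h (not called). The calls of CXCL2 at 6h (1.48 to 0.48) and of CXCL9 at 6h (1.91 to −0.28) and at 12h (2.34 to 0.03) were lost, CXCL8 at 6h moved from 0.74 to −0.67, CXCL2 at 12h from 0.15 to −0.98 and CXCL10 at 0h from 1.004 to −0.34. CXCL8 was called lower in PD at 0h (−2.67), CXCL14 too (−1.02), and CXCL9 turned to −2.05 and was called, although its RefSeq model of 450 bases is short of the row that was counted. Within a group the same step moved CXCL10 in PD at 12h from 4.08 to 4.10.

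As counted, CXCL13 had the widest difference of these 9 genes at 0h. All PD libraries lay above all GS libraries at all 3 times, by a log2 difference of 3.83 ± 0.68 at 0h, 2.85 ± 0.57 at 6h and 2.30 ± 0.47 at 12h (edgeR adjusted p = 0.001, 0.00496 and 0.00652). With the trend in length and GC removed the differences were 2.57, 1.63 and 1.17, the last of them not called. CXCL16 differed by 0.10 ± 0.24, 0.05 ± 0.32 and 0.46 ± 0.34 and was not called. With the trend removed its differences were −0.27, 0.03 and 0.28, also not called, so its sign at 0h changed.

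**Figure D4:**
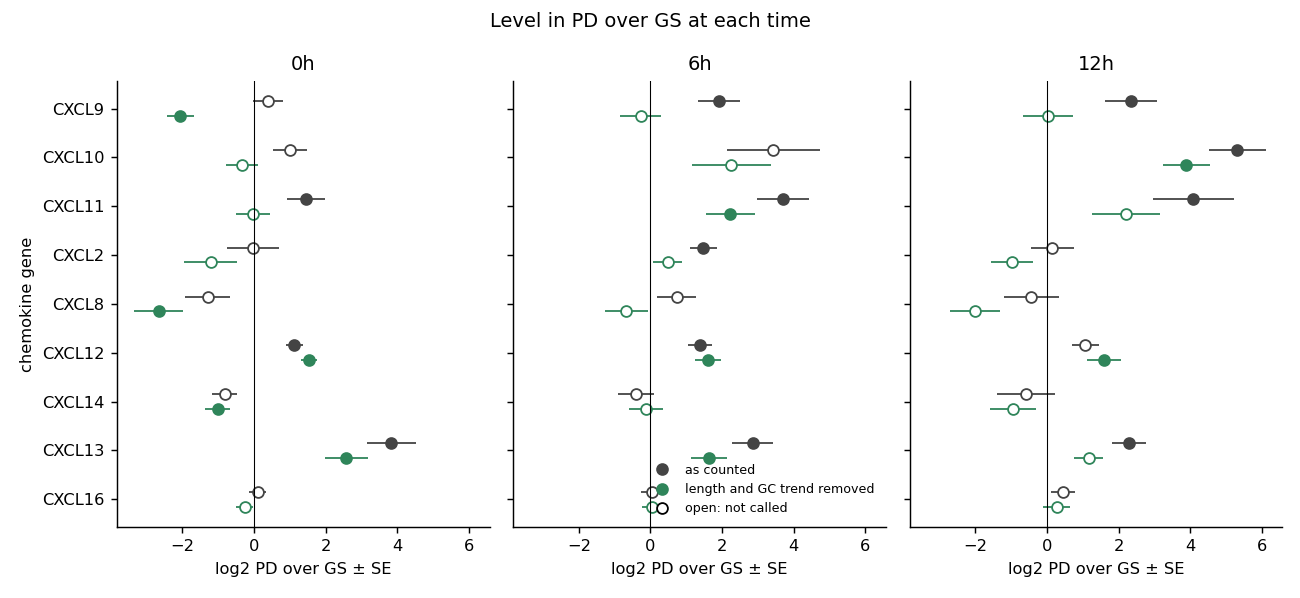
Log2 difference of level in PD from GS with its standard error at 0h, 6h and 12h, as counted (grey) and with the trend in gene length and GC content removed (green); filled points passed the test. CXCL12 is filled under both at 0h and 6h, and CXCL9 at 0h moves from 0.39 to −2.05.

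The receptors were read from a list of 9, of which 7 had rows (CXCR1 and CXCR8 had none). Within groups ACKR1, the scavenger of venular endothelium and red cells, rose in GS at 12h (log2 fold change 1.04 ± 0.29, adjusted p = 0.0138), and ACKR3, the scavenger receptor of CXCL12 and CXCL11, rose in PD at 12h (1.33 ± 0.33, adjusted p = 0.0395). In GS, ACKR3 at 12h (0.93 ± 0.27, adjusted p = 0.0152) and ACKR1 at 6h (0.93 ± 0.30, adjusted p = 0.0325) stayed under the 2-fold threshold. No receptor was called at 6h in either group. Of all genes, 11.1% at 6h and 15.7% at 12h were called in GS, and 0.142% and 5.98% in PD. CXCR3, the receptor of CXCL9, CXCL10 and CXCL11, had 3.83 to 11.0 CPM at 0h and 1.72 to 4.08 CPM at 12h in PD, with a log2 fold change of −1.33 (adjusted p = 0.157). CXCR2, the receptor of CXCL2 and CXCL8, had −1.37 in PD at 12h (0.0687) and −0.74 in GS (0.0465, under the 2-fold threshold). Over the 7 receptors the median at 12h came to −0.38 (PD) and −0.64 (GS), beside −0.05 and −0.08 over all genes tested. CXCR4, the receptor of CXCL12, was higher in PD at each time, by 1.55, 1.46 and 1.45 (edgeR adjusted p = 0.00164, 0.011 and 0.011). CXCR6, the receptor of CXCL16, was higher in PD at 0h (1.40, adjusted p = 0.0135) and at 12h (1.6, 0.0184). ACKR1 at 0h and 12h (1.77 and 1.48) and ACKR3 at 6h and 12h (1.44 and 1.31) were called higher in PD as well. Of all genes, 15.2% at 0h, 11.1% at 6h and 10.2% at 12h were called higher in PD. CXCR2 was called lower in PD at 12h (−1.30, 0.0184), and CXCR5, the receptor of CXCL13, differed by −0.98 at 0h (0.0275, under the threshold).

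Of the listed genes around interferon gamma, 13 were tested, and 3 rose in GS at 6h and at 12h while 0 rose in PD at 6h and 2 at 12h. Over all genes 11.1% and 15.7% were called in either direction in GS and 0.142% and 5.98% in PD. Called higher were 1023 and 1300 of 18594 genes in GS and 21 and 501 of 15545 in PD. IRF1, a transcription factor induced by interferons that acts on CXCL9 and CXCL10, had 132, 152, 177 and 143 CPM at 0h in PD pigs 2, 3, 4 and 5 and 1105, 785, 1103 and 1324 CPM at 12h. No PD value of IRF1 at 12h overlapped those at 0h, and its log2 fold change was 2.86 ± 0.41 (adjusted p = 0.0149), beside 1.17 ± 0.33 in GS (0.0139). SOCS1, an inhibitor of interferon signalling, rose by 1.61 ± 0.38 in PD at 12h (0.0343) and by 1.40 ± 0.30 at 6h and 1.154 ± 0.30 at 12h in GS. The PD calls of IRF1 and SOCS1 were lost without PD pig 3 or pig 5, where no gene was called. IRF9, part of the complex that binds the interferon element, rose by 1.13 ± 0.28 and 1.34 ± 0.28 in GS. IFNG, the gene of interferon gamma itself, had at most 7.97 CPM in a library and was not called within a group (−0.78 ± 0.48 in PD and −1.015 ± 0.58 in GS at 12h). At 6h it was at 0.43 ± 0.47 in PD and −1.46 ± 0.58 in GS, and the interaction was 1.91 ± 0.80 (edgeR adjusted p = 0.783). Over the whole list the median at 12h came to 0.70 (PD) and 0.48 (GS), beside −0.05 and −0.08 over all genes tested.

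The list of NF-kB genes and the cytokines that switch CXCL2 and CXCL8 on held 14 tested genes. Of these, 6 rose in GS at 6h and 6 at 12h, and 3 rose in PD at 6h and 9 at 12h, with none called lower. Of all genes, 11.1% and 15.7% were called in either direction in GS and 0.142% and 5.98% in PD. Those called higher were 1023 and 1300 of 18594 genes in GS and 21 and 501 of 15545 in PD. The cytokine IL6 rose by 3.77 ± 0.46 in PD at 6h, the cytokine TNF by 3.20 ± 0.42 and TNFAIP3, a brake on NF-kB, by 3.35 ± 0.47. These calls at 6h were lost without PD pig 3, 4 or 5, where no gene was called. At 12h the smallest adjusted p-values of the list in PD were those of IL6 (4.51 ± 0.47), TNF (2.71 ± 0.41), TNFAIP3 (3.04 ± 0.48) and the NF-kB inhibitor NFKBIA (1.96 ± 0.38). The calls of the list in PD at 12h were lost too without PD pig 3 or pig 5, where no gene was called. Among the called genes of the list in GS at 12h they were those of CSF3 (2.85 ± 0.40), NFKBIA (2.01 ± 0.30), IL6 (2.13 ± 0.46) and TNFAIP3 (1.97 ± 0.46). Its median in PD came to 2.16 at 6h and 1.80 at 12h, and in GS to 0.84 and 0.82, beside −0.02, −0.05, −0.05 and −0.08 over all genes tested in the same order. No gene of either list was called for a difference of change between the groups.

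**Figure D5:**
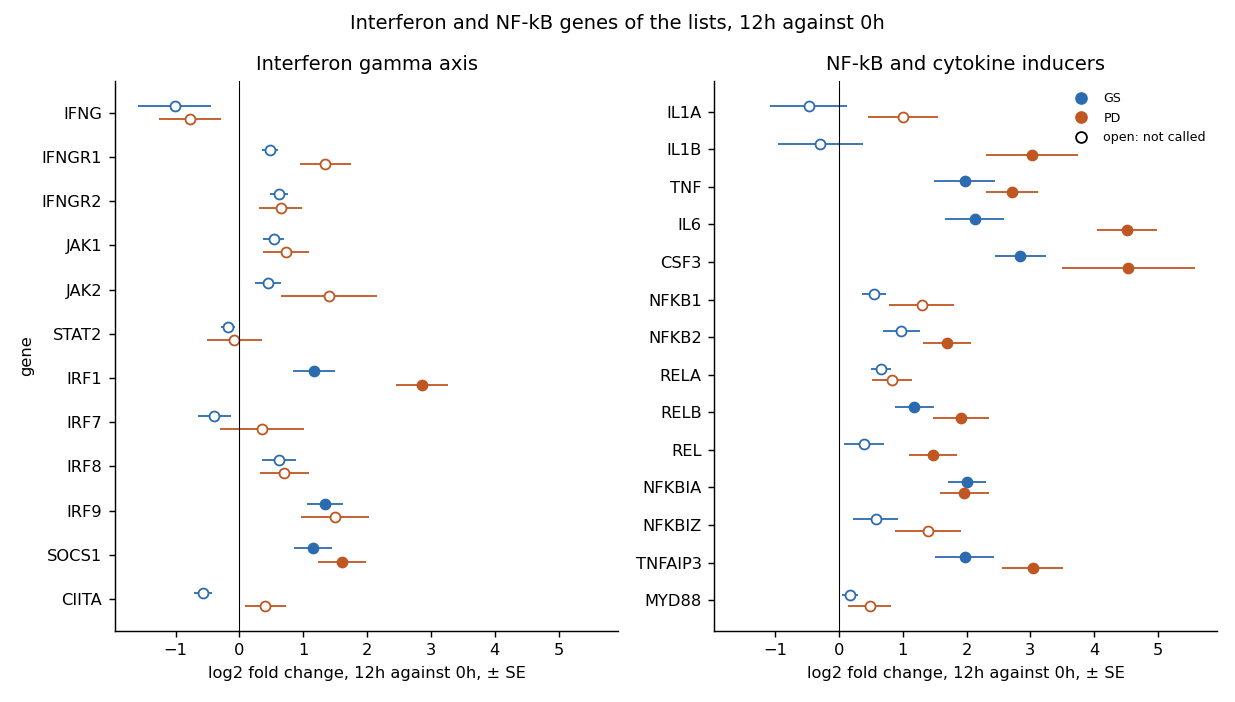
Log2 fold change at 12h against 0h with its standard error for tested genes of the interferon gamma list (left) and of the NF-kB and cytokine list (right), in GS (blue) and PD (orange); filled points passed the test. IRF1 lies at 2.86 in PD and 1.17 in GS, and IFNG lies below 0 in both.

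Of 7 genes that process chemokines or degrade their messenger, ZC3H12A, a ribonuclease that cuts inflammatory messengers, rose in GS at 6h (1.52 ± 0.32) and 12h (1.51 ± 0.33) and in PD at 12h (2.34 ± 0.59). The 6 others were not called within a group. DPP4, which trims CXCL9 to CXCL12 to weaker forms, was at 0.25 ± 0.36 in PD and −0.34 ± 0.13 in GS at 12h. Of the genes listed around hypoxia and CXCL12, ACKR3 was the one called within a group. HIF1A, the hypoxia-inducible transcription factor, was at 1.05 ± 0.74 in PD and 0.47 ± 0.14 in GS at 12h. Of 8 further CXC ligands listed, AMCF-II and PPBP had rows and none was called within a group. AMCF-II, a porcine neutrophil attractant, was at most 1.64 CPM in all libraries but that of PD pig 4 at 12h, where it had 7.10 CPM.

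The genes most like each member were sought by Pearson correlation of log2 CPM, after subtracting the mean of the same pig, over 27 libraries and 14139 genes with a symbol. These values are descriptions over libraries that share pigs and depth. For CXCL10 they were ACOD1 (r = 0.94), CD274 (0.92) and TNIP3 (0.92), and for CXCL9 they were CXCL10 (0.85), UBD (0.83) and SLU7 (0.82). CXCL11 was most like UBD (0.88), ANP32E (0.84) and PEX13 (0.83). CXCL8 was most like CD69 (0.88), CBLB (0.87) and NAALADL2 (0.85), and CXCL2 like DUSP5 (0.85), LRTM2 (0.85) and PIM2 (0.83). CXCL12 was most like PHYKPL (0.85), METTL11B (0.83) and IL26 (0.82), and CXCL14 like BTBD11 (0.85), CRABP1 (0.84) and EFCAB2 (0.82). CXCL13 was most like NCAPG (0.82), SGO1 (0.75) and CDK1 (0.74), and CXCL16 like ASNSD1 (0.94), USP15 (0.94) and DNAJC21 (0.93). Between members, CXCL9 and CXCL11 had r = 0.78, CXCL10 and CXCL11 0.63, CXCL2 and CXCL8 0.59, CXCL12 and CXCL14 0.79 and CXCL10 and CXCL12 −0.25.

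Markers of the leukocytes that these chemokines attract were read in the same libraries, where in bulk tissue fewer cells of a type and less RNA per cell cannot be told apart. The 9 T and natural killer cell markers with a row summed to 270 to 509 CPM in PD at 0h and 149 to 220 CPM at 12h, without overlap, and CD3D fell by 1.58 ± 0.32 on the log2 scale (adjusted p = 0.024), 1 of 8 tested. In GS the same sum was 262 to 369 CPM at 0h and 140 to 262 CPM at 12h, and CD2 fell by 1.20 ± 0.16. The B cell marker MS4A1 fell in GS at 6h and 12h and in PD at 12h (−2.39 ± 0.44 in PD), and the 4 B cell markers summed to 38.7 to 97.6 CPM in PD at 0h and 22.1 to 43.3 CPM at 12h. The 7 neutrophil markers with a row summed to 847 to 1664 CPM in PD and 238 to 614 CPM in GS at 0h. S100A12 alone had 500 to 962 CPM in PD and 62.1 to 288 CPM in GS. CSF3R (20.3 to 44.4 CPM in PD, 33.6 to 127 in GS) and CXCR2 (15.8 to 35.8 and 25.8 to 73.7) ranged lower in PD. Of 6 tested at 0h, 3 were called higher in PD and 1 lower, where 29.1% of all genes were called. MPO was at 0 in every PD library and in some GS libraries. Among the T cell markers CD3G was at 0 in some libraries. The 9 monocyte and macrophage markers summed to 2314 to 2946 CPM in PD and 3624 to 6963 CPM in GS at 0h, and CD14 rose in GS at both times (1.28 ± 0.22 and 1.6 ± 0.22). Both red cell markers with a row, HBB and ALAS2, summed to 51.4 to 236 CPM in PD and 0.355 to 10.3 CPM in GS at 0h. ALAS2 was at 0 only in the library of GS pig 9 at 0h, and HBB fell in GS at 6h and 12h. Of the other markers, SCGB1A1 fell in GS at 12h (1 of 10 epithelial), KDR in GS at 6h (1 of 7 endothelial), and CCL21 at 6h and 12h and PROX1 at 12h in GS (2 of 3 lymphatic), while 0 of 6 fibroblast markers were called within a group. At 0h the epithelial markers summed to 29210 to 80820 CPM in PD, most of it SFTPC, and 8693 to 11360 CPM in GS. In PD 4 of the 10 were called higher and 1 lower. The endothelial markers summed to 1311 to 1930 CPM in PD and 2040 to 2831 CPM in GS, with 1 of 7 called higher in PD and 2 lower. Over all genes 11.1% were called in GS at 6h, 15.7% in GS at 12h and 5.98% in PD at 12h. Whether these markers have a part in the levels of the chemokines was not tested.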

How the data were processed

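The authors deposited a table of raw counts per Ensembl gene (31908 genes, Sscrofa11.1) for 27 lung libraries. They made stranded mRNA libraries, trimmed paired reads (cutadapt 1.15), aligned them with TopHat2 (2.0.14) and, per the labels, counted with featureCounts (Subread 1.6.0). Neither the strand setting nor what became of multi-mapped reads is given in the sources used here, so reads of close copies and of opposite strands carry an unknown error. The authors' DESeq2 (1.18.1) results were not used here.

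The members and the gene lists were chosen with earlier results of these data known. Symbols come from the table for 16719 genes, from NCBI numbers for 985, from descriptions for 60 and from positions for 188. No 2 libraries were duplicates (smallest chi-square per degree of freedom 39.8).

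The counts were filtered with filterByExpr, normalized by TMM and tested in edgeR 4.0.16 (limma 3.58.1, R 4.3.3) with two-sided quasi-likelihood F tests and robust dispersion, and p-values were adjusted by Benjamini-Hochberg over all genes tested. Each group was fitted over its 3 times with the pig as replicate block, as the paired design of the study. The difference of change was the interaction of group and time over all 27 libraries, called with no fold threshold, and levels were fitted over the 9 libraries of each time. The count model replaces the Wilcoxon test of the study as the main test, and the exact Wilcoxon test was an alternative, as was DESeq2 1.42.0. Same-numbered libraries are the same pig. Their residuals correlated in GS (mean r 0.513) and little in PD (0.112), against −0.116 and −0.0337 between pigs. Of the lists, a gene was named if called within a group or for a difference of change, up to 4 for each list and comparison, or if it is the receptor of a member. Alternatives were no replicate block, DESeq2 and its size factors, no low-count filter, libraries thinned to 14650700 counts, other sets of libraries, other thresholds, 2 counts added instead of 0.5, and each pig left out. The removal of the trend in length and GC was added after the data had been seen. The scripts were tested on simulated data. Some listed genes are not reported here. Promoter bases were read from RefSeq's Sscrofa11.1.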

Additional observations from a re-analysis of the deposited data

Results flagged for a closer look

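Among 90 groups of pigs or ratios, 5 held a sample whose gap to its neighbour took most of the group's range, where chance gives about 1 in 20. For CXCL9 at 0h this was GS pig 44, with 49.7 CPM against 160 to 196 in the other GS pigs (gap over range 0.851 on the log2 scale). The ratio of CXCL10 at 6h was high in GS pig 9, at 2.40 against −0.64 to −0.14 (0.835). CXCL11 at 12h was high in GS pig 44, at 7.53 CPM against 1.39 to 2.24 (0.722). CXCL13 at 0h was high in GS pig 9, at 7.43 CPM against 1.53 to 2.41 (0.712). The ratio of CXCL16 at 12h was high in GS pig 55, at 0.82 against 0.28 to 0.38 (0.823). GS pig 44 thus had the lowest 0h value of CXCL9 and of CXCL10, and its CXCL10 ratio at 12h is the GS ratio that overlaps those of PD. Their cause was not tested.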

How the results depend on the processing

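Of the 7 members, 1 was called in PD at 12h (CXCL10). It became 2, with CXCL9, under DESeq2, with all 27 libraries in the fit and with the length and GC trend removed, where the calls over all genes also went from 930 of 15545 to 2560 of 15545, 3300 of 17884 and 2077 of 12444. It became 0 with the 2 times compared alone (4 of 14907 genes). With each pig left out it ran from 0 to 2. Without the low-count filter CXCL9 took the place of CXCL10, so the count stayed at 1. With no replicate block (no pairing by pig) CXCL10 in PD at 12h was at 4.67 (adjusted p = 0.0332), and the count of called members did not change in any comparison with the block left out. Leaving the block out changed the calls over all genes from 2057 to 1123 in GS at 6h, from 2911 to 1896 in GS at 12h, from 22 to 100 in PD at 6h and from 930 to 1460 in PD at 12h. The count of 0 in GS at 12h ran from 0 to 2 with a pig left out. For the difference of the 12h change it was 1 (CXCL10) with the exact Wilcoxon test unadjusted, on CPM and on rlog ratios, and 0 otherwise. The level at 0h had 2 members called, 1 without the low-count filter, 4 with the length and GC trend removed and 1 to 3 with a pig left out, while the calls over all genes went from 4792 of 16477 to 5235 of 26956 without the filter and 2505 of 12747 with the trend removed. The level at 6h had 4 (3418 of 16201 genes), then 2 with the trend removed (1293 of 12638) and 2 to 5 with a pig left out, and that at 12h had 3 (3179 of 16431), then 2 (CXCL10 and CXCL12) with the trend removed (2052 of 12699) and 1 to 3 with a pig left out. Removing the trend reversed CXCL9 at 0h (−2.05) and at 6h (−0.28) and CXCL11 at 0h (−0.0233), and changed the sign of the uncalled levels of CXCL10 at 0h (−0.34), CXCL8 at 6h (−0.67) and CXCL2 at 12h (−0.98), of the difference of the 6h change of CXCL12 (−0.02) and of the PD change of CXCL14 at 6h (0.08). Outside the 7 members, the uncalled level of CXCL16 at 0h changed sign with the trend removed as well (−0.27). Adding 2 counts instead of 0.5 moved no mean ratio by more than the spread of the pigs. The causes were not tested. CXCL11 had as few as 23 counts in a library.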
